A study of Mus musculus with 24 samples.

Results

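The spliceosomal small nuclear RNAs (snRNAs) examined here were 6 of the genes that carry a U1, U5, U11 or U12 name. They were taken out of 53900 features counted in mouse embryonic stem cells. They were found by Ensembl gene ID: Rnu1b1, Rnu1b2 and Rnu1b6 (U1), Rnu5g (U5), Rnu11 (U11) and Rnu12 (U12). They were followed in 12 libraries of 2 experiments, as raw read counts per gene. In the first, TET2 CLIP libraries, which hold RNA crosslinked to and purified with TET2, were set against input RNA of the same cells. These were E14 cells with a tagged protein (strain label E14; Tet2HA-His), as 2 independent clones, 65 and 75, with 2 biological replicates each of CLIP and of input. All of them received 500 µM 4-thiouridine for 4 h and UVB light at 400 mJ/cm2. In the second, RNA recovered with an antibody to 5-hydroxymethylcytosine (hm5C RIP, 2 replicates) was set against RIP input (2 replicates) from untreated cells of the strain label B6;129. All cells were grown with the kinase inhibitors CHIR99021 (3 µM) and PD0325901 (1 µM) in addition to LIF. Each clone is a single line, and CLIP from cells without the tag was not analysed here.

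In the nucleus, snRNAs assemble with a ring of Sm proteins and with particle-specific proteins into the snRNPs of the spliceosome. U1 base-pairs with the 5′ splice site of the common introns, U5 holds the exons together and serves both spliceosomes, and U11 and U12 recognise the 5′ splice site and the branch point of the rare minor introns. TET2 is a dioxygenase known for oxidising 5-methylcytosine to 5-hydroxymethylcytosine in DNA, and also in RNA. U1 has many gene copies in the mouse with nearly identical sequence, as U5 does, so how reads divide between copies depends on the authors' counting rule, which is not given in the sources used here. Values of single copies are therefore uncertain.

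The U1 genes lie together on chromosome 3 of GRCm38.p6 (the mm10 assembly), at chr3:96359953-96360117 (Rnu1b1, ENSMUSG00000095580), chr3:96374021-96374185 (Rnu1b2, ENSMUSG00000093834) and chr3:96460024-96460189 (Rnu1b6, ENSMUSG00000065773). They are 165, 165 and 166 nt long, and are separated by 13903 and 85838 nt. Rnu1b6 lies within the long noncoding RNA genes Gm10685, which had 3 counts in all CLIP and input libraries together and 8 in the RIP experiment, and Gm40099. Rnu5g (ENSMUSG00000095892, 116 nt, chr9:65201726-65201841) lies within the long noncoding RNA gene Gm40527, so reads of the host transcript would fall on the same bases. Rnu11 (ENSMUSG00000077323, 108 nt) lies at chr4:132270079-132270186 and is also listed under the synonym mir-801. Rnu12 (ENSMUSG00000065176, 150 nt) lies at chr15:83149645-83149794, 266 nt from the protein-coding gene Poldip3. All 6 have the biotype snRNA in the RefSeq annotation.

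TET2 CLIP libraries held 221060 to 453944 counts, against 913002 to 4729463 in their inputs, and hm5C RIP libraries held 1564014 and 2100187, against 4641963 and 4889943 in RIP input. In the CLIP experiment the 8 embryonic stem cell markers summed to 1040 to 1853 CPM (counts scaled to a common library size) in TET2 CLIP and 1224 to 1593 CPM in input. Lists for primitive endoderm, trophoblast, mesoderm and fibroblast each reached at most 30.8 CPM in any of these libraries. In the RIP experiment the stem cell markers summed to only 11.1 to 21.1 CPM in hm5C RIP and 25.1 to 25.4 CPM in RIP input, with Zfp42 at 0 counts in hm5C RIP. Klf4 went the other way, at 1.96 to 9.54 CPM in hm5C RIP against 1.91 to 1.94 CPM in RIP input. Pou5f1 and Tdgf1 overlapped between hm5C RIP and RIP input. Acsl6 alone took 57.9 ± 3.84% of the counts in hm5C RIP and 0.211 ± 0.0619% in RIP input (SD, n = 2 each).

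TET2 CLIP libraries were rich in all 5 snRNAs that were detected. In every TET2 CLIP library each of Rnu1b1, Rnu1b2, Rnu1b6, Rnu5g and Rnu12 stood above every input library. How many of all features separate in this way was not counted, so the separation only describes these genes. Fitted over both clones, the rise ran between 5.11-fold for Rnu12 and 10.0-fold for Rnu1b1. The 6 genes together made up 1.10 ± 0.0879% of the counts in TET2 CLIP of clone 65 and 0.640 ± 0.0977% in TET2 CLIP of clone 75, against 0.130 ± 0.00695% in input of clone 65 and 0.155 ± 0.00806% in input of clone 75 (SD, n = 2 each). By edgeR's quasi-likelihood test, 5 of the 5 tested genes were called higher at an adjusted p under 0.05, and 8.99% of the 10334 features tested were called higher. The median log2 change of all tested features was -0.03. Rnu11 was not tested.

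**Figure D1:**
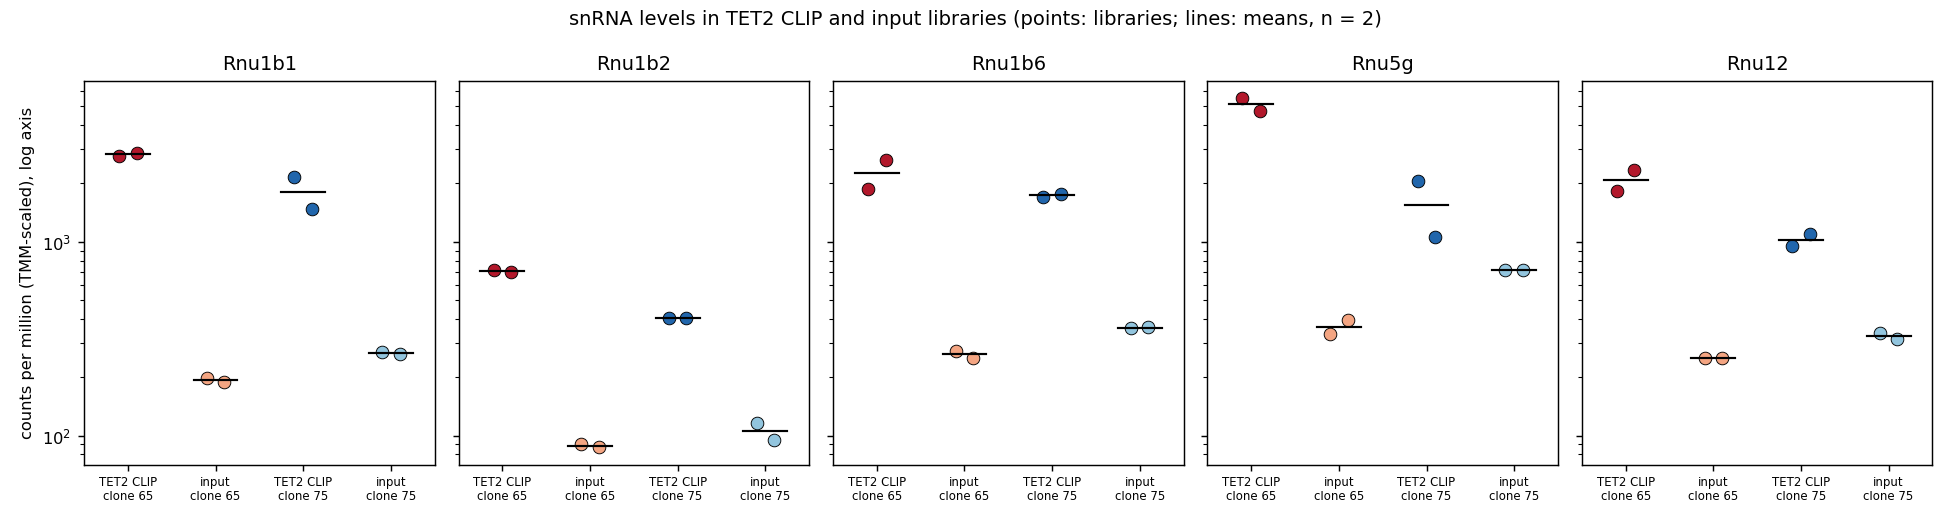
TMM-scaled CPM (log axis) of the 5 detected snRNA genes in TET2 CLIP and input libraries of clones 65 and 75. Each point is a library and each line the mean of 2 libraries. All TET2 CLIP points lie above all input points of the same gene, and the gap of Rnu5g in clone 75 is the smallest. Rnu11, at 0 counts in every library, is not drawn.

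Among the U1 genes, Rnu1b1 had 2782 and 2884 CPM in TET2 CLIP of clone 65 and 2145 and 1473 CPM in TET2 CLIP of clone 75, against 199 and 188 CPM in input of clone 65 and 269 and 264 CPM in input of clone 75. Every CLIP library was thus far above every input. Its fitted log2 change over both clones was 3.32 (SE 0.14, edgeR adjusted p = 2.81e-18). Rnu1b2 was the least counted copy, at 713 and 699 CPM in TET2 CLIP of clone 65 and 405 and 406 CPM in TET2 CLIP of clone 75, against 90.4 and 87.2 CPM in input of clone 65 and 116 and 94.7 CPM in input of clone 75. The replicates of a CLIP group nearly coincided, and the rise was 2.49 on the log2 scale (SE 0.11, edgeR adjusted p = 2.41e-17).

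Rnu1b6 had 1864 and 2648 CPM in TET2 CLIP of clone 65 and 1692 and 1772 CPM in TET2 CLIP of clone 75, against 274 and 251 CPM in input of clone 65 and 360 and 362 CPM in input of clone 75. It was the U1 copy whose CLIP levels came closest between the clones, with a rise of 2.68 (SE 0.13, edgeR adjusted p = 1.46e-16). With the 3 copies summed into 1 feature before the fit, U1 was higher by 2.92 on the log2 scale (edgeR adjusted p = 2.12e-17).

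The copies did not keep the same proportions in CLIP as in input. Rnu1b1 supplied 51.9% and 46.3% of the counts of the 3 U1 genes in TET2 CLIP of clone 65 and 50.6% and 40.3% in TET2 CLIP of clone 75, against 35.3% and 35.7% in input of clone 65 and 36.1% and 36.7% in input of clone 75. The groups did not overlap, although the counting interval of the lowest CLIP library (37.2% to 43.6%, exact Clopper-Pearson, 95%) overlapped those of all 4 inputs, which ended at 37.5% and 37.5% in clone 65 and at 40.2% and 39.2% in clone 75. Rnu1b6 supplied 34.8% and 42.5% in TET2 CLIP of clone 65 and 39.9% and 48.5% in TET2 CLIP of clone 75, against 48.7% and 47.7% in input of clone 65 and 48.3% and 50.2% in input of clone 75. One CLIP library of Rnu1b6 therefore fell within the input range. These intervals cover counting error only, and the part of read assignment between near-identical copies in these shares was not tested.

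U5, the snRNA shared by both spliceosomes, was represented by Rnu5g. It had 5481 and 4746 CPM in TET2 CLIP of clone 65 and 2053 and 1055 CPM in TET2 CLIP of clone 75, against 336 and 394 CPM in input of clone 65 and 711 and 711 CPM in input of clone 75. Clone 65 gave the highest CLIP levels of any of the 6 genes, while the second replicate of clone 75 came near its inputs. Over both clones the rise was 2.48 on the log2 scale (SE 0.15, edgeR adjusted p = 5.78e-14).

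Of the minor spliceosome RNAs, Rnu12 had 1831 and 2355 CPM in TET2 CLIP of clone 65 and 950 and 1091 CPM in TET2 CLIP of clone 75, against 252 and 250 CPM in input of clone 65 and 336 and 314 CPM in input of clone 75. All CLIP libraries exceeded all inputs, and the rise was 2.35 on the log2 scale (SE 0.12, edgeR adjusted p = 9.22e-16). Rnu11 had 0 counts in all 12 libraries. A count of 0 allows up to 3 counts, or 0.549 to 16.6 CPM in the libraries of the CLIP experiment and 0.638 to 1.96 CPM in those of the RIP experiment, in terms of counting error alone. How reads that overlap genes or map to several places were counted is not given in the sources used here, so whether U11 RNA was absent or its reads were not assigned to this row cannot be told apart, and these bounds are limits on counted reads, not on U11 RNA. The same holds for other snRNA genes: Rnu1a1 (U1), Rnu2-10 (U2) and Rnu7 (histone pre-mRNA processing) had 0 counts in all 12 libraries, and Rnu6 (U6) had 2 counts in 1 library.

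Compared per kilobase of gene length, Rnu5g had the highest mean level in both kinds of library. In TET2 CLIP it averaged 28738 ± 18245 CPM per kb, followed by Rnu1b1 at 14068 ± 3958, Rnu1b6 at 12013 ± 2660, Rnu12 at 10377 ± 4384 and Rnu1b2 at 3370 ± 1053 CPM per kb (SD, n = 4). In input, Rnu5g averaged 4636 ± 1735 CPM per kb, followed by Rnu12 at 1921 ± 290, Rnu1b6 at 1877 ± 347, Rnu1b1 at 1394 ± 258 and Rnu1b2 at 588 ± 78.9 CPM per kb (SD, n = 4). The neighbours in this order, from Rnu5g down to Rnu12, were within their spread of each other in TET2 CLIP. In input Rnu12 and Rnu1b6 were too, and the ranges of Rnu1b6 and Rnu1b1 overlapped, while every Rnu1b2 value was below every value of its neighbour in both kinds of library. The clones were pooled in these means, which widens the SD of Rnu5g most.

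Because ratios within a library do not depend on its scaling, the minor and major spliceosome RNAs were also set against each other as raw counts. There were 0.342 and 0.378 Rnu12 counts per count of the 3 U1 genes in TET2 CLIP of clone 65 and 0.224 and 0.299 in TET2 CLIP of clone 75, against 0.448 and 0.476 in input of clone 65 and 0.451 and 0.435 in input of clone 75. All 4 CLIP libraries lay below all 4 inputs. That separation was lost when Rnu5g was counted with the U1 genes, where TET2 CLIP clone 75 replicate 2 (0.232) was above both inputs of clone 75 (0.231 and 0.219). The mean log2 difference was -0.57, with a pooled replicate SD of 0.16. Rnu12 thus rose less than these 3 U1 genes did as a sum, but not less than each copy in each clone. In clone 65 the fitted log2 rise of Rnu12 (3.06) lay between those of Rnu1b2 (2.99) and Rnu1b6 (3.11), with Rnu1b1 at 3.87. In clone 75 Rnu12 (1.65) was below Rnu1b2 (1.99), Rnu1b6 (2.26) and Rnu1b1 (2.77). The count ratio is one of these rows, not of all U1 RNA to all U12 RNA, since U1 copies without a U name are not in it.

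Rnu5g against U1 did not move the same way in the clones. It had 1.02 and 0.762 counts per U1 count in TET2 CLIP of clone 65, against 0.596 and 0.749 in input of clone 65. In clone 75 it had 0.484 and 0.289 in TET2 CLIP, against 0.954 and 0.987 in input. Both CLIP libraries of clone 65 were above their inputs, 1 of them narrowly, and both of clone 75 were well below theirs.

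**Figure D2:**
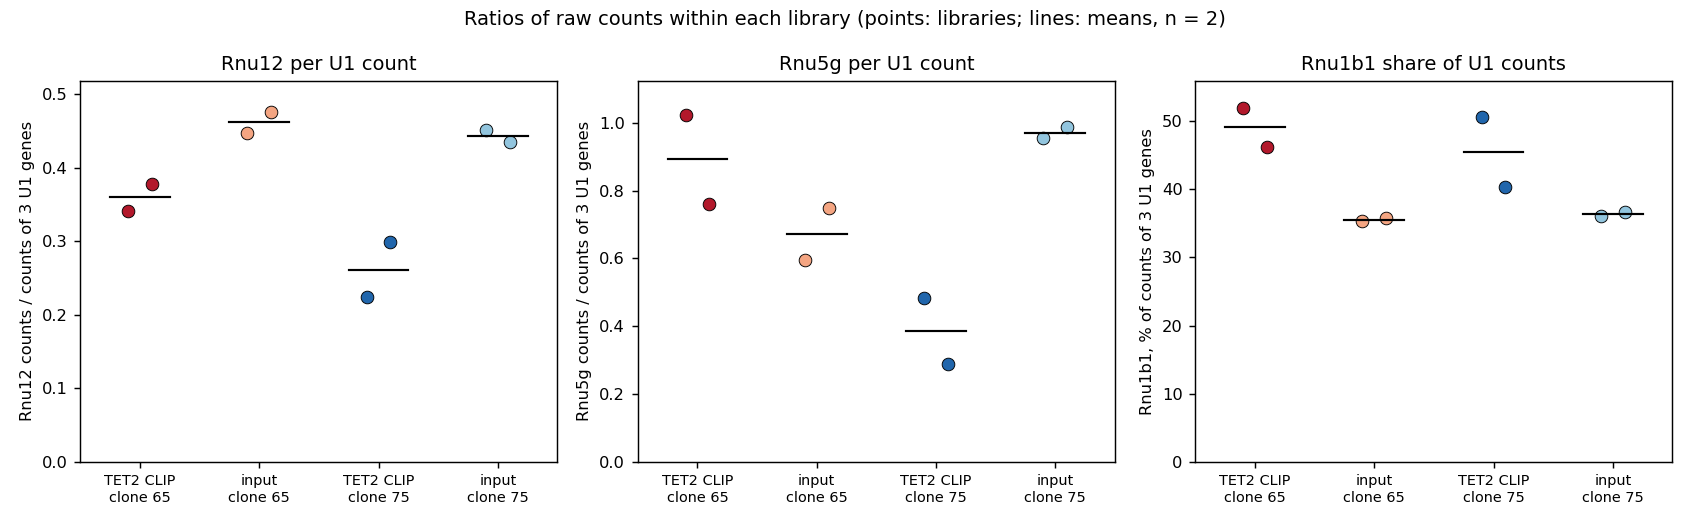
Ratios of raw counts within each library: Rnu12 and Rnu5g per count of the 3 U1 genes, and the percentage of the U1 counts that came from Rnu1b1. Points are libraries and lines means of 2 libraries. Rnu12 per U1 count is at most 0.378 in TET2 CLIP and at least 0.435 in input, while Rnu5g per U1 count goes up in clone 65 and down in clone 75.

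The clones were next compared in how strongly the snRNAs were enriched. In clone 65, 5 of 5 tested genes were called higher (8.21% of all tested features were), with log2 changes of 3.87 for Rnu1b1, 3.81 for Rnu5g, 3.11 for Rnu1b6, 3.06 for Rnu12 and 2.99 for Rnu1b2. In clone 75, 5 of 5 were also called higher (6.22% of all tested features were), with 2.77 for Rnu1b1, 2.26 for Rnu1b6, 1.99 for Rnu1b2, 1.65 for Rnu12 and 1.14 for Rnu5g. Rnu5g was thus near the top of these genes in clone 65 and the lowest of them in clone 75. In clone 75 its call (edgeR adjusted p = 0.000285) was lost without the first TET2 CLIP replicate of clone 75, where the log2 change was 0.47 (adjusted p = 0.214). It was also lost when either TET2 CLIP library of clone 65 was left out, with log2 changes of 1.03 each and adjusted p of 0.111 without replicate 1 and 0.0804 without replicate 2. Fitted on the 4 libraries of clone 75 alone, Rnu5g was called, at 1.08.

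The difference between clones was itself tested. The fitted enrichment was smaller in clone 75 than in clone 65 for all 5 tested genes, and was called smaller for 4 of the 5. Of all tested features, 2.54% were called different in either direction and 2.22% were called lower. The log2 difference, clone 75 minus clone 65, was -2.66 for Rnu5g (SE 0.30, edgeR adjusted p = 1.81e-06), which ranked 5 by p among all 10334 features. It was -1.41 for Rnu12 (SE 0.24, adjusted p = 0.000543), -1.10 for Rnu1b1 (SE 0.26, adjusted p = 0.0138) and -1.01 for Rnu1b2 (SE 0.22, adjusted p = 0.00757). Rnu1b6, at -0.84 (SE 0.25, adjusted p = 0.0668), did not pass.

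These calls held to different degrees. Rnu1b6 passed with DESeq2 size factors in edgeR (-0.91, adjusted p = 0.0392), with DESeq2 itself (adjusted p = 0.0146), without TET2 CLIP clone 65 replicate 1 (-1.02, adjusted p = 0.000558) and without TET2 CLIP clone 75 replicate 2 (-0.80, adjusted p = 0.0417). The Rnu5g difference missed the threshold without TET2 CLIP clone 65 replicate 1 (-2.49, adjusted p = 0.0825). The differences of Rnu1b1 and Rnu1b2 missed it when any 1 input library was left out, with adjusted p of 0.0702 to 0.144 for Rnu1b1 and 0.0518 to 0.153 for Rnu1b2, and when libraries were scaled by size alone, at -0.52 and -0.43. Rnu1b2 also missed it with no count filter (-0.78, adjusted p = 0.174). Scaling by size alone moved the median of all features to 0.60 in this comparison. Relative to that median Rnu1b1 was at -1.11 and Rnu1b2 at -1.03, against -1.13 and -1.03 with TMM scaling. Scaling moves a gene and the median alike, so the closeness of these offsets was fixed in advance.

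**Figure D3:**
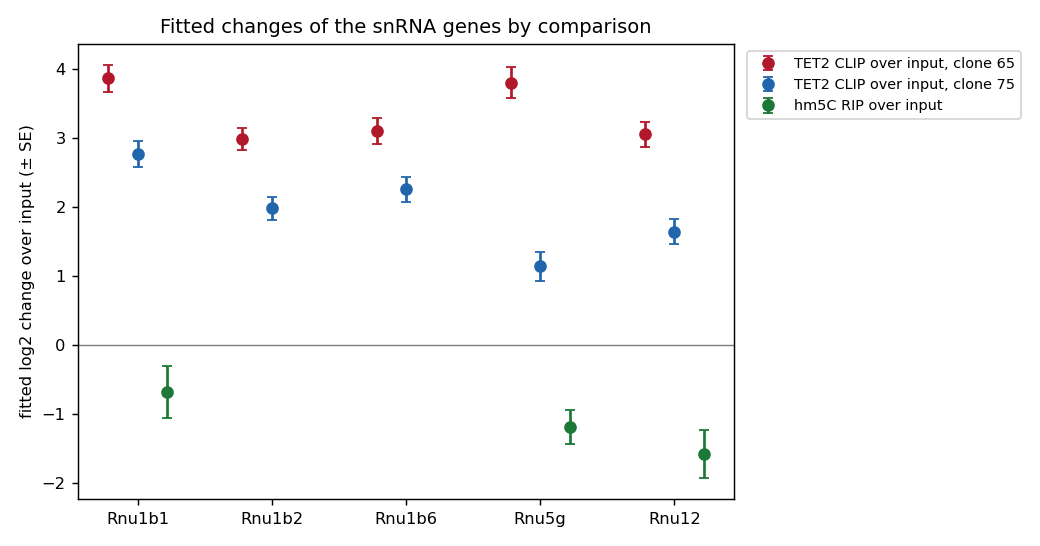
Fitted log2 changes with SE for each snRNA gene: TET2 CLIP over input in clone 65 and in clone 75, and hm5C RIP over RIP input. Every CLIP change is above 0 and larger in clone 65 than in clone 75, with the widest gap for Rnu5g (3.81 and 1.14). Rnu1b2 and Rnu1b6 had too few RIP counts to be tested.

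The inputs of the clones also differed for 1 of the 5 tested genes (6.9% of all tested features were called in either direction). Rnu5g was higher in input of clone 75 than in input of clone 65, by 0.96 on the log2 scale (SE 0.21, edgeR adjusted p = 0.00268). That call was lost without the first input replicate of clone 65 (0.85, adjusted p = 0.182) or without TET2 CLIP clone 65 replicate 1 (0.92, adjusted p = 0.172) or replicate 2 (0.92, adjusted p = 0.125), and the cause was not tested. The other genes had values of 0.46 for Rnu1b1 (adjusted p = 0.144), 0.46 for Rnu1b6 (adjusted p = 0.129), 0.37 for Rnu12 (adjusted p = 0.240) and 0.21 for Rnu1b2 (adjusted p = 0.542), none of which passed. Rnu1b1 and Rnu1b6 passed when any 1 TET2 CLIP library was left out, with adjusted p of 0.0381 to 0.0474 for Rnu1b1 and 0.0226 to 0.0434 for Rnu1b6. The clone difference of Rnu5g holds both its input level, which is the denominator, and its TET2 CLIP level. Mean input was 365 CPM in clone 65 and 711 CPM in clone 75. Mean TET2 CLIP was 5113 CPM in clone 65 and 1554 CPM in clone 75. In these bulk samples fewer cells carrying an RNA and less of it per cell cannot be told apart.

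In the hm5C RIP experiment the snRNAs were scarce. The 6 genes made up 0.00729 ± 0.000189% of the counts in hm5C RIP and 0.0145 ± 0.000105% in RIP input (SD, n = 2 each). Of the counts other than Acsl6 they made up 0.0160% and 0.0189% in hm5C RIP, against 0.0144% and 0.0146% in RIP input, so the order of the groups turned round. Rnu5g had 74 and 108 counts in hm5C RIP, against 449 and 483 in RIP input. Rnu12 had 21 and 21 counts in hm5C RIP, against 134 and 156 in RIP input. Rnu1b1 had 16 and 23 counts in hm5C RIP, against 75 and 65 in RIP input.

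The other U1 copies were almost absent. Rnu1b6 had 1 and 2 counts in hm5C RIP and 11 and 8 in RIP input. Rnu1b2 had 0 and 2 counts in hm5C RIP and 0 in both RIP inputs. Rnu1b1 therefore supplied 94.1% and 85.2% of the counts of the 3 U1 genes in hm5C RIP, against 87.2% and 89.0% in RIP input, which overlap.

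On the TMM scale, Rnu5g and Rnu12 were lower in hm5C RIP than in RIP input, a direction that rests on the scaling given below. Rnu5g had 48.5 and 44.8 CPM in hm5C RIP, against 109 and 103 CPM in RIP input, a fitted log2 change of -1.18 (SE of 0.25, edgeR adjusted p = 0.00466). Rnu12 had 13.8 and 8.71 CPM in hm5C RIP, against 32.5 and 33.2 CPM in RIP input, a fitted log2 change of -1.57 (SE of 0.35, edgeR adjusted p = 0.00656). Rnu1b1 had 10.5 and 9.54 CPM in hm5C RIP, against 18.2 and 13.8 CPM in RIP input, and its log2 change of -0.68 (SE 0.38, edgeR adjusted p = 0.175) did not pass. So 2 of the 3 tested genes were called lower, in a comparison that called 18.9% of its 2081 tested features lower. The fit leaves 2 residual degrees of freedom, and without hm5C RIP replicate 1 Rnu1b1 also passed (-0.82, adjusted p = 0.0472).

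**Figure D4:**
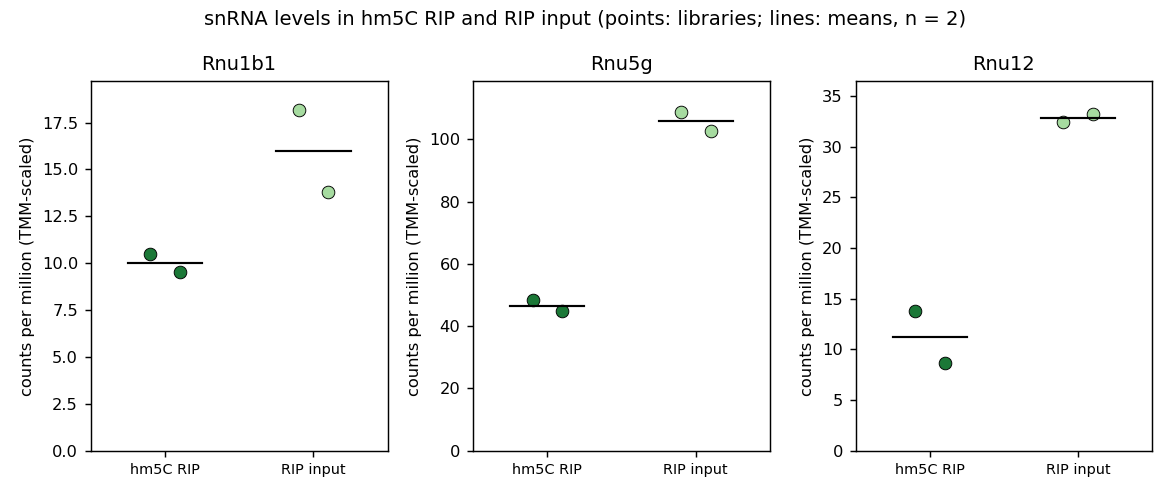
TMM-scaled CPM of Rnu1b1, Rnu5g and Rnu12 in hm5C RIP and RIP input, on axes that start at 0. Points are libraries and lines means of 2 libraries. For each gene both hm5C RIP points lie below both RIP input points on this scale. How many of all features separate in this way was not counted, so the separation only describes these genes.

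The direction depended on how libraries were scaled. When Acsl6 was dropped and libraries were scaled by size alone, the log2 change of Rnu5g was 0.30 (edgeR adjusted p = 0.340), that of Rnu1b1 0.81 (adjusted p = 0.114) and that of Rnu12 -0.11 (adjusted p = 0.812), and 0 of 3 genes passed, also at an unadjusted p under 0.05. That scaling put the median of all tested features at 1.99, against 0.15 with TMM. Relative to the median, Rnu5g stood at -1.68, Rnu12 at -2.10 and Rnu1b1 at -1.17 under that scaling, against -1.33, -1.72 and -0.83 with TMM. In CPM over the counts of all features but Acsl6, Rnu5g had 118 ± 17.7 in hm5C RIP and 98.0 ± 1.39 in RIP input (SD, n = 2 each). The log2 changes of the 3 tested genes were thus below the median change of all tested features. Scaling moves a gene and the median alike, so these offsets cannot test the scaling. The level of the genes against the total was not settled.

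Marker genes moved in the same comparison. The 4 fibroblast markers summed to 36.0 to 39.0 CPM in hm5C RIP and 2.98 to 3.63 CPM in RIP input, mostly from Col1a2 (32.7 to 34.8 CPM in hm5C RIP, against 2.55 to 3.15 CPM in RIP input), with Thy1 at 0 counts in hm5C RIP. The part of these markers, and of Acsl6, in the snRNA values was not tested.

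Within RIP libraries there were 1.24 and 0.778 Rnu12 counts per U1 count in hm5C RIP, against 1.56 and 2.14 in RIP input. Both hm5C RIP values were below both inputs, with a mean log2 difference of -0.90 and a pooled replicate SD of 0.40, on 21 Rnu12 counts per hm5C RIP library. The ratio of Rnu12 to U1 was thus lower in hm5C RIP than in its input, as it was in TET2 CLIP. The RIP value rests on few counts, with 17 and 27 U1 counts in the hm5C RIP libraries. Its U1 counts also differ in make-up. Rnu1b1 supplied on average 89.7% of them in hm5C RIP, against 49.1% in TET2 CLIP of clone 65 and 45.5% in TET2 CLIP of clone 75.

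The mRNAs of the proteins that these RNAs work with were also examined in TET2 CLIP. Over both clones, 0 of 63 tested genes in 6 lists (snRNP proteins of U1, U5 and the tri-snRNP, and U11/U12, the Sm core, snRNA transcription and 3′ processing, and snRNP assembly) were called higher by edgeR, and 0 by DESeq2. At an unadjusted p under 0.05, 2 were higher. Of all tested features, edgeR called 8.99% higher in the same comparison. Of the 63, 7 were called lower by edgeR, in a comparison that called 5.83% of all tested features lower, and 6 by DESeq2. The median log2 change of the 63 was -0.06, close to that of all features. In clone 75 alone, 2 of 15 genes of snRNP assembly, cap and import were called higher, with log2 changes of up to 1.11. Of all tested features 6.22% were called higher in clone 75.

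Among the proteins of the U1 snRNP, 0 of 3 changed. Snrnp70, the U1-70K protein, had 444 ± 15.1 CPM in TET2 CLIP and 398 ± 47.0 CPM in input (SD, n = 4 each), a log2 change of 0.16 (edgeR adjusted p = 0.418). The Sm core, which binds U1, U5, U11 and U12 alike, had 2 of 5 lower and a median of -0.47. Snrpb, which encodes SmB, had 38.6 ± 19.3 CPM in TET2 CLIP and 64.5 ± 5.93 CPM in input, a log2 change of -0.82 (edgeR adjusted p = 0.0246). Snrpg had 0 counts in both TET2 CLIP libraries of clone 65 and 2 and 4 counts in those of clone 75, and passed at an edgeR adjusted p of 0.0112. At the bound that its zero counts in clone 65 allow (-1.16), Snrpg still lies below the list median, so the median could not move.

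Of the U5 and tri-snRNP proteins, 1 of 15 was lower and the median was -0.06. It was Prpf8, the large U5 protein at the heart of the spliceosome, with 173 ± 42.2 CPM in TET2 CLIP and 238 ± 32.2 CPM in input (SD, n = 4 each) and a log2 change of -0.46 (edgeR adjusted p = 0.0230). Of the U11/U12 proteins, 1 of 5 was lower and the median was 0.24. It was Pdcd7, the U11/U12 59K protein, with 13.6 ± 9.28 CPM in TET2 CLIP and 31.9 ± 3.75 CPM in input and a log2 change of -1.26 (edgeR adjusted p = 0.0445). It had 0 and 4 counts in TET2 CLIP of clone 65, and the log2 change was -4.96 without replicate 2 of that group and -0.94 without replicate 1. Zrsr2, which contacts the 3′ splice site of minor introns, had 90.2 ± 44.4 CPM in TET2 CLIP and 57.4 ± 5.07 CPM in input and did not pass (0.64, edgeR adjusted p = 0.0639).

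In the list of snRNA transcription and 3′ processing 1 of 20 was lower, with a list median of -0.09. It was Ints1, a subunit of the Integrator complex that cleaves snRNA transcripts, with a log2 change of -0.70 (SE of 0.21, edgeR adjusted p = 0.0211). Of the genes of snRNP assembly, cap and import, 2 of 15 were lower and the median was 0.05. Strap, an SMN-associated protein, had 46.2 ± 17.9 CPM in TET2 CLIP and 298 ± 146 CPM in input (SD, n = 4 each), a log2 change of -2.62 (SE of 0.21, edgeR adjusted p = 2.48e-11). Prmt5, which methylates Sm proteins, had a log2 change of -0.99 (edgeR adjusted p = 0.0244).

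These calls were unequally firm. The log2 change was -0.85 for Prpf8 without TET2 CLIP clone 65 replicate 2, -1.11 for Ints1 without TET2 CLIP clone 65 replicate 1 and -1.29 for Snrpb without TET2 CLIP clone 75 replicate 1. Strap was called lower under 14 of 14 alternatives. Snrpb lost its call without input clone 65 replicate 2 or input clone 75 replicate 2, Prpf8 without input clone 65 replicate 1, and Prmt5 without input clone 65 replicate 2. Ints1 lost it without input clone 75 replicate 2 or TET2 CLIP clone 75 replicate 1, and Pdcd7 kept it under 7 of 14 alternatives, losing it without any of input clone 65 replicates 1 and 2, TET2 CLIP replicate 1 of either clone and input clone 75 replicate 2, and with DESeq2.

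In hm5C RIP too few of these mRNAs were counted for a description of the lists, with 0 to 2 genes tested in each. Snrpb was lower on the TMM scale, with 1875 ± 794 CPM in hm5C RIP and 6132 ± 159 CPM in RIP input (SD, n = 2 each), a log2 change of -1.71 (edgeR adjusted p = 0.00421). Scaled by size alone after Acsl6 was dropped, it stood at -0.28 and did not pass. Its level in this experiment was unlike that of the other mRNAs. In the RIP inputs Snrpb had 25776 and 28301 counts, against 25 and 26 for Prpf8 and 6 and 14 for Snrnp70. In CLIP input it averaged only 64.5 CPM. Whether the RIP reads counted for Snrpb come from its mRNA was not tested. Ints1 was called higher at 2.06 (edgeR adjusted p = 0.0144), where 33% of all tested features were, on 8 and 11 counts in hm5C RIP and 6 and 4 in RIP input. It kept that call under 8 of 12 alternatives and lost it without either RIP input, where the log2 change was 2.13 without replicate 1 and 1.33 without replicate 2.

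Outside the spliceosome, Rn7sk, the 7SK RNA that holds the elongation factor P-TEFb inactive, was the 1 other named gene of this kind with enough counts. It had 8318 ± 3233 CPM in TET2 CLIP and 1500 ± 106 CPM in input (SD, n = 4 each), a log2 change of 2.41 (edgeR adjusted p = 1.46e-14), which lies within the range of the spliceosomal genes. In hm5C RIP it had 201 ± 13.1 CPM, against 395 ± 139 CPM in RIP input (SD, n = 2 each), a log2 change of -0.98 (edgeR adjusted p = 0.0301) whose sign depended on the scaling (0.51 by size alone after Acsl6 was dropped).

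Across the 8 libraries of the CLIP experiment the 5 detected genes varied together, with Pearson correlations of log2(CPM + 1) between 0.896 (Rnu5g with Rnu1b6) and 0.992 (Rnu12 with Rnu1b2). Each point is a library, and the gap between TET2 CLIP and input sets much of these values. The 3 features whose pattern was most like that of Rnu1b1 were Gm26316 (r = 0.998), Gm25360 (r = 0.998) and Gm24950 (r = 0.997), all annotated as snRNA genes without a U name. Gm24950 averaged 7070 CPM in TET2 CLIP and 1080 CPM in input, and Gm26316 averaged 4715 CPM in TET2 CLIP and 752 CPM in input, so both had more counts than any named U1 gene. Gm25360 averaged 1529 CPM in TET2 CLIP and 184 CPM in input. The features most like Rnu12 were Gm22816, the coding gene Pdap1 and the pseudogene Gm16523 (r = 0.995 each), with log2 changes of 2.83, 0.64 and 2.29.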

How the data were processed

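Samples were mouse embryonic stem cell libraries, grouped by their labels into TET2 CLIP and input of clones 65 and 75 and hm5C RIP and its input, 2 replicates each; per the series' design text these are biological replicates. The small RNA libraries of the series were not used here, since their tables hold tRNA fragments. The authors deposited raw counts per feature, whole numbers with differing totals. Bowtie2 2.2.6, STAR 2.5.3a, UMI-tools and cutadapt, with build mm10, are named in the submitters' processing notes; their roles, the counting tool, the annotation and the use of strand are not given in the sources used here.

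Counts were tested with edgeR 4.0.16 in R 4.3.3: TMM factors, filterByExpr (minimum count 10), robust quasi-likelihood fit and F-test, and Benjamini-Hochberg adjustment over all tested features (threshold 0.05). CLIP was fitted over 8 libraries (4 residual degrees of freedom) and RIP over 4 (2). Fits were also run on simulated counts with known changes, equally many up and down. Those counts hold no shift as large as that of Acsl6, so they could not test the scaling of hm5C RIP. CPM are counts per library size of the tested features times TMM factor, and coordinates are RefSeq's for GRCm38.p6. Alternatives were DESeq2 size factors, DESeq2 1.42.0 with its Wald test, library size alone, no count filter, a replicate block, each library left out (a lone library being assumed to vary like the others), summed U1 copies, each clone fitted alone, and RIP without Acsl6. Depth was 221060 to 4889943 counts per library, and a count of 0 allows up to 3 counts.

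The genes and the lists were chosen with earlier results of these data known. Named were all 6 genes, the 3 features most correlated with Rnu1b1 and with Rnu12, and overlapping genes. Genes named from the protein lists were among the 3 members per list whose p was smallest (all where fewer were tested). Of these the called ones were named, with Snrnp70 and Zrsr2, and the other uncalled ones were left out. Acsl6 is named for its share. Col1a2, Thy1, Zfp42, Klf4, Pou5f1 and Tdgf1 were chosen after their values were seen.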

Additional observations from a re-analysis of the deposited data

Results flagged for a closer look

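For 4 genes the enrichment in TET2 CLIP over input differed between the clones by the test of the difference itself, an interaction contrast in the edgeR fit. The log2 difference, clone 75 minus clone 65, was -2.66 for Rnu5g, -1.41 for Rnu12, -1.10 for Rnu1b1 and -1.01 for Rnu1b2. Rnu5g had the largest of these and the only input level called different between clones (0.96 on the log2 scale, clone 75 over clone 65). All 4 were smaller in clone 75. Over all features 34 were called higher and 229 lower in this comparison with TMM scaling, and 638 higher and 104 lower with library size alone, so the balance over all features turned round with the scaling. Fitting each clone on its own 4 libraries left every gene called higher in both clones.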

How the results depend on the processing

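In TET2 CLIP over input, all 5 tested genes stayed called higher over both clones and in clone 65 under every alternative run. In clone 75, 4 genes did so, and Rnu5g ranged from 0.47 to 1.48. Summing the U1 copies left 3 features, with 3 called in both clones together, in clone 65 and in clone 75, by construction. For clone 75 minus clone 65, 2 genes instead of 4 were called with library size alone (Rnu5g and Rnu12), and 2 to 5 when 1 library was left out. In input, clone 75 over clone 65, 0 to 3 genes were called with 1 library left out, and library size alone gave -0.15 for Rnu1b2 and -0.00057 for Rnu12, neither of which passed in any alternative run. In hm5C RIP, 0 genes instead of 2 were called without Acsl6 and with library size alone, where Rnu1b1 was at 0.81 and Rnu5g at 0.30; the other alternatives kept 2 or 3. With Rnu5g counted among the major RNAs, the minor to major log2 difference was -0.40 in TET2 CLIP and -0.48 in hm5C RIP. The cause of these changes was not tested. No ratio could be had from Rnu11 alone, which had 0 counts. Replicate deviations of the enriched libraries and their inputs were nearly uncorrelated by replicate number (-0.0078, 0.018 and 0.022). Counting noise lowers such correlations, so whether replicate numbers pair the samples was not settled. A fit with the replicate number as a block called 5 genes in both clones together, 5 in clone 65, 5 in clone 75, 4 in the clone difference and 2 in hm5C RIP; over all features it called 772 higher and 431 lower in both clones, against 929 and 602 without it, and Snrpb, Prpf8, Pdcd7, Ints1 and Prmt5 were not called. The block could not be fitted for the input comparison, where clones are whole blocks. Over all features, library size alone turned the balance of higher to lower calls to 808 and 922 over both clones, against 929 and 602, to 684 and 1326 in clone 65, against 848 and 297, and to 242 and 1559 in the input comparison, against 517 and 196. In clone 75 it was 872 and 264, against 643 and 406, and in hm5C RIP without Acsl6 it was 1686 and 88, against 686 and 394. Small counts limit Rnu12 and Rnu1b1 in hm5C RIP. Both RIP inputs were deeper than 3 of the 4 CLIP inputs. Whether depth limits Rnu11, or Rnu1b2 and Rnu1b6 in RIP, was not tested.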
